A study of Mus musculus with 2 samples.

Results

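Open chromatin at genes of DNA replication and cell division was described in thymus, the organ in which T cells mature. The members were 42 protein-coding genes given as a list, 25 of S phase and 17 of mitosis, out of 21701 protein-coding genes on the autosomes and X. Every one matched a gene in the GENCODE M21 annotation. DNase-seq, in which nuclei are treated with DNase I so that accessible DNA is cut and sequenced, had been run on the whole thymus of 2 female mice of the hybrid strain B6CASTF1/J, at the age of 14 days. B6CASTF1/J is the first generation of a cross between the C57BL/6J and CAST/EiJ strains. The 2 samples formed the only group, biological replicates 1 and 2, with neither a treatment nor a control. Their labels gave 2 animal numbers but the same donor identifier, so the spread between them may be that of 2 animals or of less.

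Cells copy their DNA in S phase and divide it in mitosis, and the genes for these tasks are switched on in successive waves. Transcription factors of the E2F family, which pair with the retinoblastoma proteins, bind promoters of many S phase genes. Promoters of many mitosis genes hold a cell cycle genes homology region (CHR), the contact of the DREAM and MuvB protein complexes, near boxes for the factor NF-Y, whose core is CCAAT. Thymocytes divide rapidly at some stages of their maturation and rest at others, so whole thymus holds cycling and resting cells side by side. In such bulk tissue, few cells with an open promoter and many cells with a partly open one cannot be told apart.

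Deposited peaks numbered 97051 in replicate 1 and 108010 in replicate 2, and footprints, short protected stretches inside accessible DNA, numbered 276400 and 318156. Read depth was not given, so no counting interval was computed. As a check of the tissue label, promoters of 10 of 10 thymocyte markers were open in both replicates. The same held for 4 of 6 stromal and endothelial, 2 of 6 thymic epithelial, 2 of 6 B cell, 2 of 6 macrophage and dendritic cell, and 1 of 6 erythroid markers. Foxn1, Csf1r and Gata1 were among those not open in both. Summed promoter strength was 109 and 36.6 (replicates 1 and 2) for the thymocyte list, and at most 11.2 and 6.48 for any other list. The sums run over open genes of lists of 10 or 6, so list size adds to this gap. Among all open promoters, the median percentile of the thymocyte markers was 71.0 in replicate 1 but 48.9 in replicate 2. For the open genes of any other list it was at most 33.7 and 39.8. The part of other cells in the results below was not tested.

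To show which sequences lay in the accessible DNA, promoters were searched from 250 bases before the start site to 49 bases after it, a window of 300 bases, on both strands. The start was the annotated one nearest to the strongest promoter peak. The E2F site was searched as the word TTCCCGC, as its variant TTCGCGC, and in the forms that read TTGCCGC or else TTGGCGC. The CHR was searched as TTTGAA or in the form TTCGAA, and the NF-Y box as CCAAT. Printed here are 3 S phase and 2 mitosis promoters from among those with the most matches under a footprint in both replicates, with ties settled by promoter strength, to show how the elements compared between the classes are arranged. Each runs 5′ to 3′ on the strand of the gene in mm10 and ends 9 bases after the start. Capitals mark every E2F, CHR or CCAAT word, and adjoining capitals can be overlapping words.

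The S phase promoters follow. Mcm5 and Mcm7 encode subunits of the MCM helicase that unwinds DNA at the fork, and Orc1 encodes a subunit of the origin recognition complex. Mcm7 departs from most of its class, since it also holds a CHR word, at -238 from the start and under a footprint in both replicates.
Mcm5, chr8:75109319-75109578, plus strand: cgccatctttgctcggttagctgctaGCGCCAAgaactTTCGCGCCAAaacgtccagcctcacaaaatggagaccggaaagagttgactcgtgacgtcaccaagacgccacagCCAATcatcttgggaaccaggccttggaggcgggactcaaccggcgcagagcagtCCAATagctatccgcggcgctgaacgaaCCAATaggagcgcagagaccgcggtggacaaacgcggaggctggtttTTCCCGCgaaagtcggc
Mcm7, chr5:138171809-138172068, minus strand: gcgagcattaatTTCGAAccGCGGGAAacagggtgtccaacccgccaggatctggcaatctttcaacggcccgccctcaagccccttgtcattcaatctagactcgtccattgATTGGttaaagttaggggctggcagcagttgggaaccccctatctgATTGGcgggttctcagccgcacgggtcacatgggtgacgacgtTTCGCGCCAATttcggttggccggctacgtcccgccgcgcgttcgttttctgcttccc
Orc1, chr4:108579204-108579463, plus strand: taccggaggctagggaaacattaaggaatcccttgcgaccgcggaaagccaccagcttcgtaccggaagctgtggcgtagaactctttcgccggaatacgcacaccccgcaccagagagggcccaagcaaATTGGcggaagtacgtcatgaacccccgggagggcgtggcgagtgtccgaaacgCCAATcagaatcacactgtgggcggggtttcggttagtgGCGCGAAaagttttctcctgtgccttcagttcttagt

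The mitosis promoters follow. Top2a encodes topoisomerase II alpha, which untangles chromosomes, and Ccnb2 encodes a B-type cyclin.
Top2a, chr11:99024180-99024439, minus strand: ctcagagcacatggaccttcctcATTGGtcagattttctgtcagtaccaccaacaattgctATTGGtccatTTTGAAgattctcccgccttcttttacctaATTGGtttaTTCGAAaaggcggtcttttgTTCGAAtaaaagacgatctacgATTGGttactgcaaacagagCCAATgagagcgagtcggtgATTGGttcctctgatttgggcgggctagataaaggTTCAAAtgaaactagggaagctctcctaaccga
Ccnb2, chr9:70421538-70421797, minus strand: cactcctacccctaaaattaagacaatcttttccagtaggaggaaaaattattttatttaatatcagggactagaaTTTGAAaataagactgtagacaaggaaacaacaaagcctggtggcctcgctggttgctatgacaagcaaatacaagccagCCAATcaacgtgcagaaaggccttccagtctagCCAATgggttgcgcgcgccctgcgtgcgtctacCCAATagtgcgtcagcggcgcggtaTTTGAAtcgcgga

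Positions below count the start base as 0 and bases upstream as negative, and refer to the first base of a word. In Mcm5, 3 E2F words at -224, -212 and -209, of which the last 2 overlap, and 2 CCAAT boxes at -137 and -54 lay under footprints in both replicates. The E2F word at -7 was covered in replicate 1 only, and the CCAAT box at -82 in neither. In Top2a, 4 of 6 CCAAT boxes and 2 of 4 CHR words were covered in both replicates, the latter at -179 and -120. Ccnb2 had its CCAAT boxes at -94, -61 and -28, each 33 bases from the next, and a CHR word at -3. All of these but the box at -28 were covered in both replicates, and a second CHR word at -174 was covered in replicate 2 only.

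All 42 promoters were open in both replicates, 25 of 25 of S phase and 17 of 17 of mitosis, where an open promoter is 1 with a peak no more than 500 bp away from an annotated start of the gene. Among all protein-coding genes this held for 58.6%. A further 40 S phase and 40 mitosis genes, listed for comparison, were also open without exception. With the outermost start alone, 41 members were open, and Gins1 was the member lost.

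E2F words were found in 17 of 25 S phase promoters (68.0%) and in 4 of 17 mitosis promoters (23.5%), against 18.3% of all promoters open in both replicates. CHR words showed the opposite order, with 12 of 17 mitosis promoters (70.6%) and 3 of 25 S phase promoters (12.0%), against 12.7%. CCAAT boxes occurred in 19 of 25 S phase promoters (76.0%) and 15 of 17 mitosis promoters (88.2%), against 38.3%. So E2F words in mitosis genes and CHR words in S phase genes stood near the share of open promoters in general. Genes are not replicates and the members were picked by name, so these shares carry no test.

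**Figure D1:**
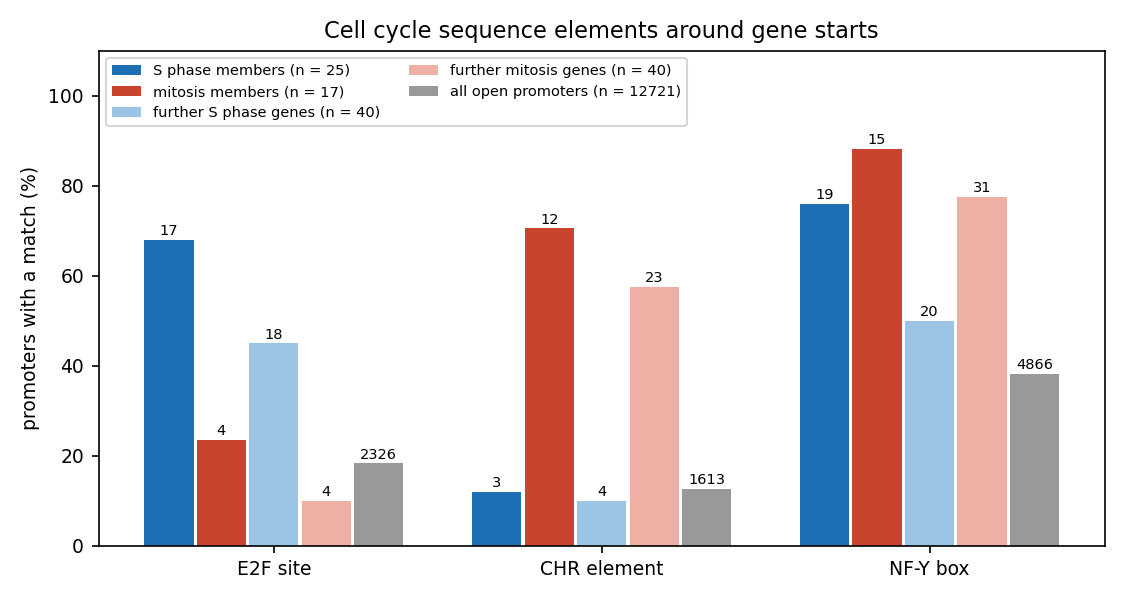
Bars give the share of promoters (%, y axis) with at least 1 E2F site, CHR element or NF-Y box (CCAAT) in the 300-base window, for the members, for the further genes of each class and for all 12721 open promoters, and the numbers on the bars count promoters. E2F sites are most frequent in the S phase members (17) and CHR elements in the mitosis members (12).

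The further genes kept this order for E2F and CHR words. E2F words were in 18 of 40 further S phase genes (45.0%) and 4 of 40 further mitosis genes (10.0%). With E2F words of 8 letters the counts were 9 and 1 in these and 14 and 1 in the members, against 4.40% of open promoters. CHR words were in 4 of 40 (10.0%) and 23 of 40 (57.5%), and CCAAT boxes in 20 of 40 (50%) and 31 of 40 (77.5%). The CpG content of the windows was similar in the 2 classes of members, with a median observed to expected ratio of 0.958 for S phase and 0.940 for mitosis, against 0.781 over open promoters. Among open promoters with a CpG ratio at or above the members' median, 27.1% held an E2F word, 11.5% a CHR word and 31.5% a CCAAT box.

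Combinations separated the classes in the same way. A CHR word together with a CCAAT box was found in 12 of 17 mitosis promoters, among them those of Cdk1, the kinase that drives entry into mitosis, and of Plk1, Aurka and Aurkb, further mitotic kinases. The 3 S phase promoters with this pair were Mcm2, Mcm7 and Rfc3, and 5.55% of open promoters had it. Among further genes it was in 18 of 40 of mitosis and 1 of 40 of S phase. An E2F word with a CCAAT box was found in 15 of 25 S phase promoters and in Ccnb1, Cdk1, Foxm1 and Mki67 of the mitosis genes, against 7.57% of open promoters. Among further genes this pair was in 9 of 40 of S phase (22.5%) and 4 of 40 of mitosis (10%), a smaller gap. None of the 3 elements was found in the windows of Ccne1, Pcna, Tk1 and Tyms of S phase or of Birc5 and Ccna2 of mitosis, against 45.2% of open promoters. That statement covers only these letters in this window. The window of Tk1 did not reach its strongest promoter peak, whose middle lay 211 bases after the start in replicate 1 and 201 in replicate 2. Footprints covered 0% and 2.33% of the bases in that window (replicates 1 and 2).

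The 37 E2F matches in S phase genes included overlapping words on the 2 strands and formed 31 separate sites. TTGGCGC read on the other strand can run into a CCAAT box, and 4 of 42 E2F matches in the members shared bases with one, 2 of 37 in S phase genes and 2 of 5 in mitosis genes, against 4.35% of E2F matches over open promoters. The 2 in mitosis genes were in Ccnb1, which encodes cyclin B1, and in Foxm1.

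CCAAT boxes came in multiples. At least 2 boxes were found in 11 of 17 mitosis promoters and 12 of 25 S phase promoters, against 14.8% of open promoters. Neighbouring boxes lay 30 to 36 bases apart in 6 of 19 pairs of mitosis genes, in 1 of 18 pairs of S phase genes and in 15.9% of pairs over open promoters. The 6 mitosis pairs were in Aurka (32 bases), Aurkb (30), Ccnb1 (32), Cdk1 (32) and Ccnb2 (33 and 33), and the S phase pair was in Cdc45 (30). Among further genes the distance was seen in 8 of 39 mitosis pairs and 4 of 14 S phase pairs, so the members' contrast in spacing was not seen there.

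Elements frequent in a class lay closer to the start than over open promoters. The median position was -31.5 for CHR words of mitosis genes, against -142 over open promoters. It was -45 for E2F words of S phase genes, against -84. CCAAT boxes had a median of -56 in mitosis genes and -76 in S phase genes, against -87. The few E2F words of mitosis genes (-85, 5 matches) and CHR words of S phase genes (-155, 3 matches) lay no closer than over open promoters. In the further genes, E2F words had medians of -21 in S phase and -84 in mitosis (4 matches). CHR words had medians of 3.5 in mitosis and -13 in S phase (4 matches). Rare words of a class were thus not always farther from the start.

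**Figure D2:**
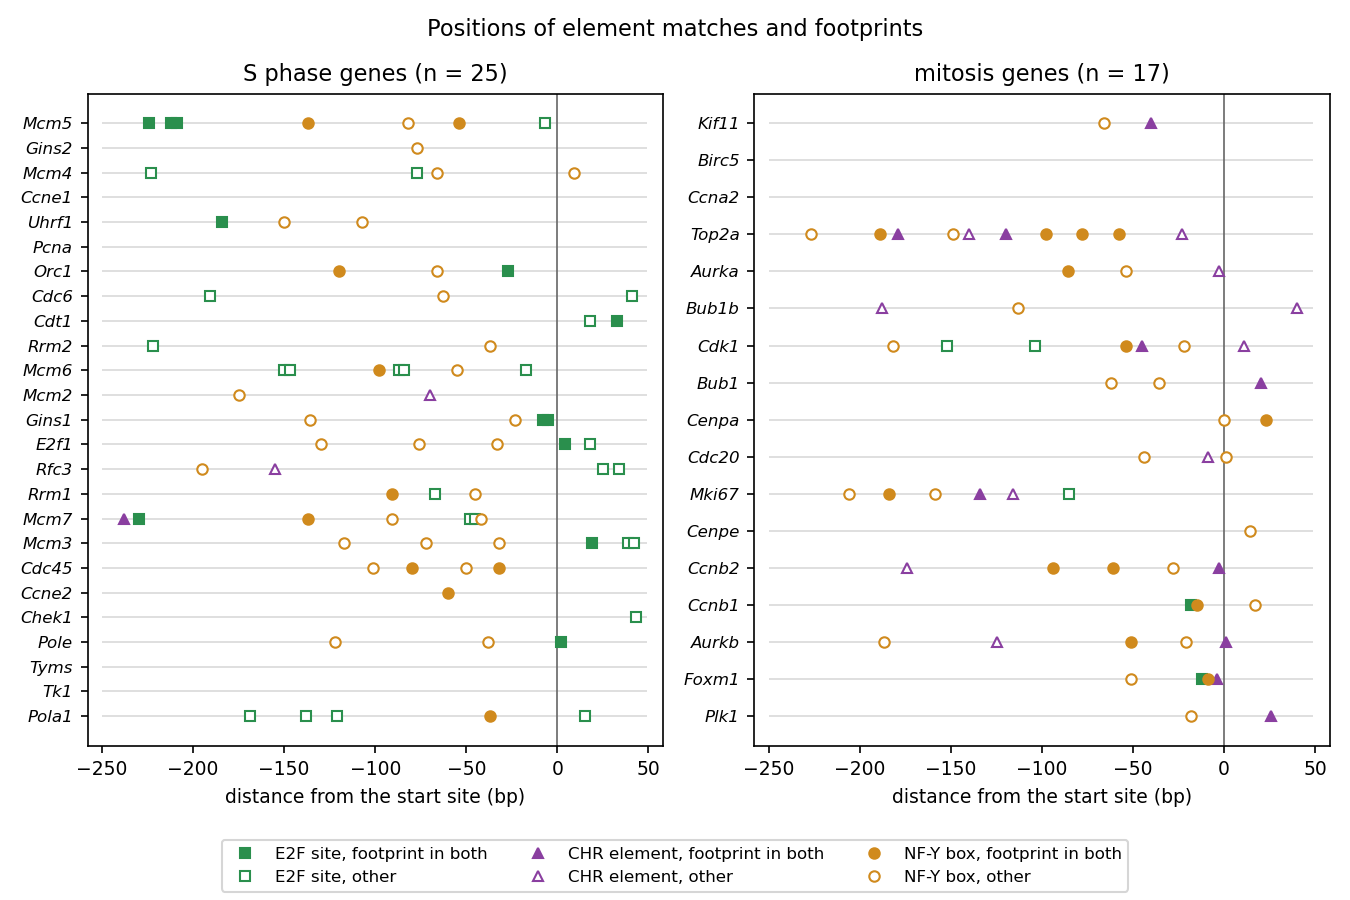
Each row is 1 member, ordered by promoter strength from the top, and the x axis gives the distance in bp of each match from the start site (vertical line at 0), for E2F sites (squares), CHR elements (triangles) and NF-Y boxes (circles). Filled symbols lie under a footprint in both replicates and open symbols do not, and triangles are seen in 3 S phase rows and 12 mitosis rows.

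Words under a footprint, sharing at least 1 bp with it, were counted per replicate and in both. Of 20 CHR matches in mitosis genes, 12 were covered in replicate 1, 11 in replicate 2 and 10 in both (50%), against 14.7% of CHR matches over open promoters. In open promoters at or above the members' median percentile of strength that share was 25.8%. Within 100 bases before and 50 after the start, 7 of 12 CHR matches of mitosis genes were covered in both (58.3%), against 23.3% over open promoters. Further mitosis genes had 8 of 26 covered in both (30.8%).

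E2F matches of S phase genes were covered at 12 of 37 in both replicates (32.4%), next to 31.3% over open promoters and under the 43.4% of the stronger open promoters. Replicate 1 covered 21 of them (56.8%), against 45.4% over open promoters, and replicate 2 covered 13 (35.1%), against 38.5%. The share thus lay above that of open promoters in replicate 1 and below it in replicate 2. With E2F words of 8 letters, 11 of 24 matches were covered in both replicates, against 34.6%, and the stronger open promoters were not counted with these words. Further S phase genes did not share this, with 6 of 26 E2F matches covered in both replicates (23.1%), and 1 of 9 with words of 8 letters. Counted by promoter, 9 of 25 S phase genes had an E2F word covered in both replicates, against 6.20% of open promoters. Such a CHR word was in 9 of 17 mitosis genes, against 2.02%. Among the further genes these counts were 6 of 40 (15%) for E2F in S phase and 8 of 40 (20%) for CHR in mitosis. Counts by promoter also reflect how often a word occurs in the class, apart from its coverage.

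CCAAT boxes were covered in both replicates at 13 of 34 in mitosis genes (38.2%) and 10 of 37 in S phase genes (27.0%), against 25.4% over open promoters and 34.8% over the stronger ones. Top2a held 4 of the 13. Without it 9 of 28 boxes (32.1%) and 8 of 16 CHR words (50%) of mitosis genes were covered in both.

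**Figure D3:**
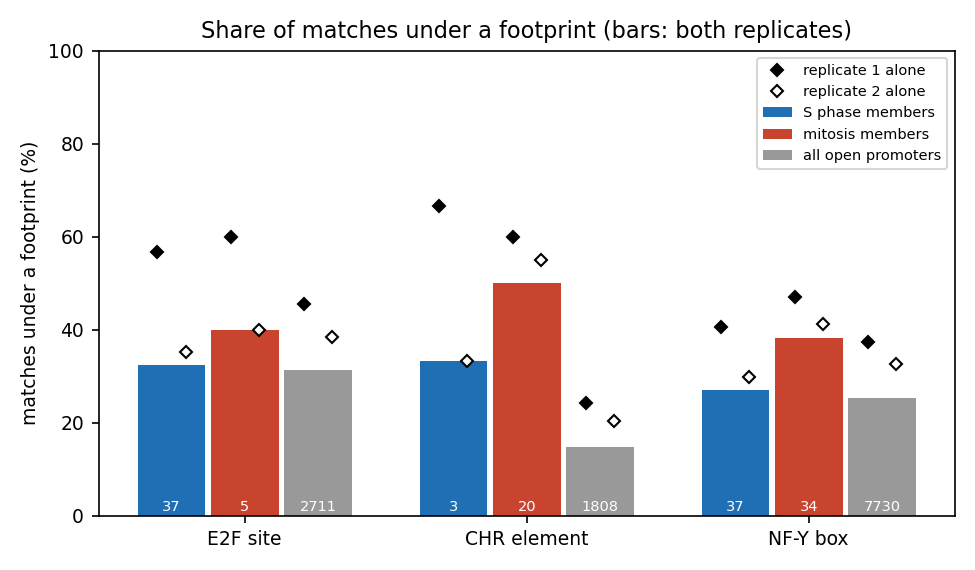
Bars show the share of matches (%, y axis) under a footprint in both replicates for S phase members, mitosis members and all open promoters, diamonds show replicate 1 (filled) and replicate 2 (open) alone, and the number of matches stands at the foot of each bar. For CHR elements the mitosis bar reaches 50% of 20 matches against 14.7% of 1808 over open promoters.

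Other common promoter words did not separate the classes by frequency. GGGCGG, the core of SP and KLF factor sites, was in 17 of 25 S phase and 13 of 17 mitosis promoters, against 67.8% of open promoters. Of these matches, 32 of 41 in S phase genes (78.0%) and 16 of 28 in mitosis genes (57.1%) were covered in both replicates, against 50.9%. Further genes had 70.3% in S phase and 60% in mitosis, and the stronger open promoters were not counted with this word. Clustered words count singly, and Pole and Ccne1 held 5 covered words each. The ETS word CCGGAAG was in 5 S phase and 2 mitosis promoters, against 18.5%, and the NRF1 word GCATGCGC in 1 and 0, against 5.61%.

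Promoter strength, the signal value that the authors gave the strongest promoter peak, was compared within each replicate. It was turned into a percentile among promoters open in that replicate, so that 50 marks the median open promoter. The median S phase promoter reached 11.4 and 5.73 (replicates 1 and 2), the median mitosis promoter 8.80 and 4.82, and the median promoter open in both replicates 6.07 and 3.98. The corresponding percentiles were 73.9 and 69.8 for S phase and 64.2 and 61.1 for mitosis. S phase exceeded mitosis by 0.31 ± 0.09 on the log2 strength scale (SD, n = 2 replicates), or by 9.23 ± 0.783 percentile points.

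Single genes of the classes overlapped widely, from percentile 29.1 to 95.4 in S phase and from 36.7 to 95.8 in mitosis in replicate 1. Above the median open promoter in both replicates were 18 of 25 S phase and 11 of 17 mitosis promoters, against 46.4% of all promoters open in both. The further genes had median percentiles of 70.1 and 70.2 for S phase and 74.9 and 69.8 for mitosis. The order of the members' classes was thus the opposite one in replicate 1 of the further genes.

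**Figure D4:**
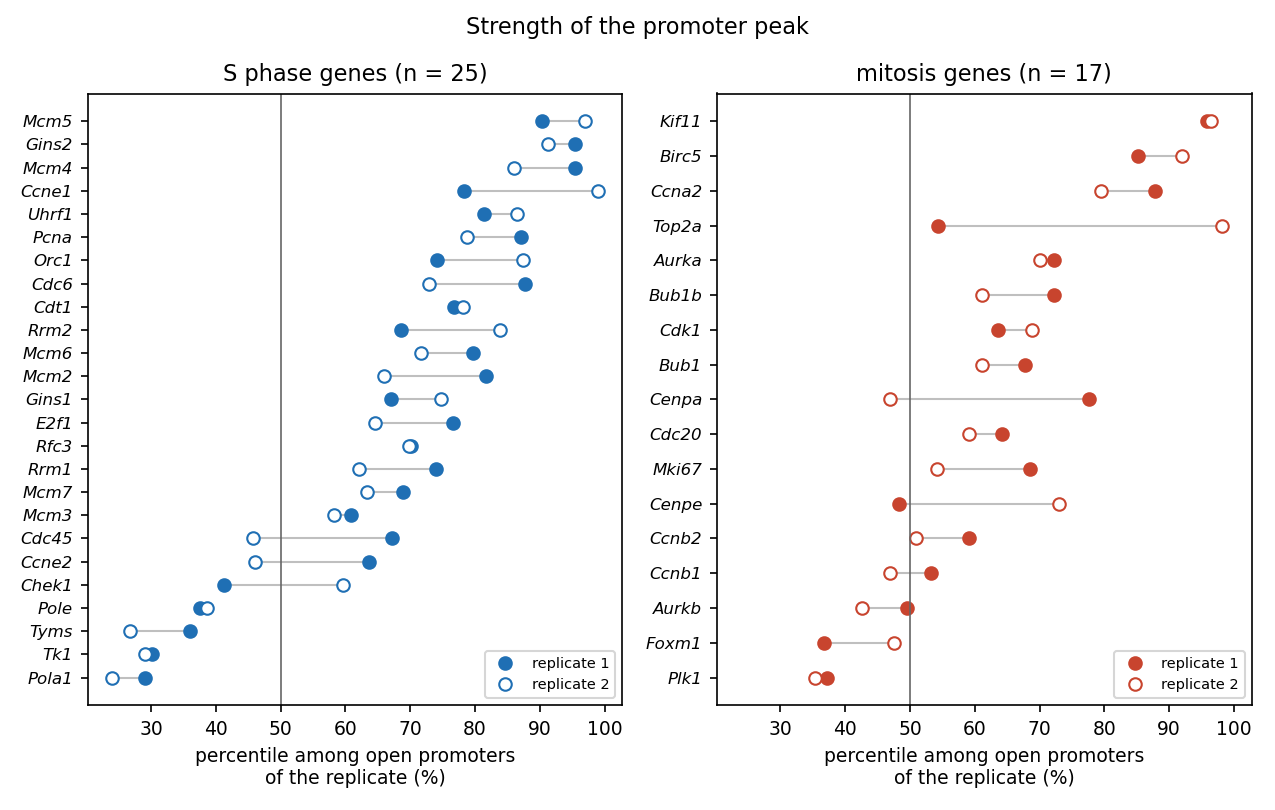
Each row is 1 member, with the percentile of its promoter strength among open promoters (x axis, %) in replicate 1 (filled) and replicate 2 (open), a grey line joining the replicates and a vertical line at 50. Mcm5, Gins2, Mcm4 and Kif11 head their classes by the mean of both replicates, and Top2a has the widest gap between them.

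Among replication genes, the MCM helicase subunits had median percentiles of 80.7 and 68.8 (n = 6 genes). Strengths of Mcm5 were 19.2 and 11.2 in replicates 1 and 2, and Mcm4 had 24.4 and 7.92. Both were in the upper part of the open promoters, at percentiles 90.3 and 97.0 for Mcm5 and 95.4 and 86.0 for Mcm4. Mcm3 was the weakest of the 6, with 7.98 and 4.51. Gins2, a subunit of the GINS complex that joins the helicase at the fork, had the highest S phase strength in replicate 1, with 24.5, and 9.03 in replicate 2.

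Origin licensing genes stood at medians of 76.7 and 78.2 (n = 3). They were Orc1 with strengths of 11.5 and 8.16, Cdc6 with 17.4 and 6.09, and Cdt1 with 12.4 and 6.70, and Cdc6 and Cdt1 load the MCM helicase onto origins. Genes of S phase control had medians of 76.6 and 64.6 (n = 5). In this group Ccne1, which encodes cyclin E1, the partner of CDK2 at S phase entry, had 13.0 and 13.3, which placed it at percentile 78.4 in replicate 1 and 99.0 in replicate 2.

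Nucleotide supply had the lowest medians of the S phase roles, 52.3 and 45.5 (n = 4), with a split among its members. Rrm1 (11.4 and 4.92) and Rrm2 (10.0 and 7.53), the subunits of ribonucleotide reductase, lay above the median open promoter. Tk1, thymidine kinase, had 2.49 and 1.73. Tyms, thymidylate synthase, had 3.42 and 1.53, and both enzymes lay below the median open promoter in each replicate. Polymerases and the clamp split likewise, with medians of 53.9 and 54.2 (n = 4). Pcna, the sliding clamp, had 17.1 and 6.77. Pola1, the catalytic subunit of the polymerase that starts new strands, had the lowest strength of all members, 2.33 and 1.31. It was the only member on the X chromosome, and its values were not adjusted for that. Pole, the leading strand polymerase, had 3.65 and 2.64.

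In mitosis genes, the group of centromere, motor and chromosome proteins had medians of 73.1 and 82.5 (n = 6). Kif11, a kinesin that separates the spindle poles, had strengths of 24.9 and 10.8 and was at percentile 95.8 and 96.4. Birc5, the survivin subunit of the chromosomal passenger complex, had 16.1 and 9.22. Both were among the stronger open promoters in each replicate. Top2a had 6.63 in replicate 1 and 12.0 in replicate 2, so it moved from percentile 54.3 to 98.1.

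Mitotic cyclins and kinases had medians of 59.1 and 50.9 (n = 7). Ccna2, which encodes cyclin A2, led them with 17.5 and 6.87. Plk1 had 3.59 and 2.33, Aurkb had 5.74 and 3.02, and Ccnb1 had 6.41 and 3.45. The promoters of Plk1 and Aurkb lay below the median open promoter in both replicates, as did that of Foxm1, a transcription factor of late cell cycle genes, with 3.51 in each. Checkpoint genes had medians of 67.7 and 61.1 (n = 3), made up of Bub1, Bub1b and Cdc20, which hold back or trigger the separation of chromosomes.

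Strength ranks correlated between replicates with a Spearman rho of 0.739 over the 42 members, 0.808 over S phase genes and 0.519 over mitosis genes, and 0.912 over all 12721 promoters open in both. These values are across genes, which are not independent. The 4 largest gaps in percentile, replicate 1 minus replicate 2, were -43.8 for Top2a, 30.8 for Cenpa, -24.7 for Cenpe and 21.4 for Cdc45. Cenpa encodes the centromeric histone H3 variant, Cenpe a centromeric kinesin and Cdc45 a helicase partner. Cenpa had strengths of 12.8 and 3.45, Cenpe 5.47 and 6.10, and Cdc45 9.60 and 3.33, and in these 3 the replicates fell on opposite sides of the median open promoter. For Cdc45 the strongest promoter peak differed, with its middle at -125 from the start in replicate 1 and at -665 in replicate 2. Its gap is thus not that of 1 peak. In Gins1 and Mcm7 too, the strongest promoter peaks of the replicates did not overlap.

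Some promoter peaks can belong to a second gene. A protein-coding gene started within 1000 bp on the other strand for 8 of 42 members, against 10.6% of all genes and 16.9% of open promoters. The 6 of S phase were Mcm4 with Prkdc, Mcm7 with Ap4m1, Cdc45 with Ufd1, Pole with Pxmp2, Orc1 with Prpf38a and Tk1 with Afmid. The 2 of mitosis were Aurka with Cstf1 and Foxm1 with Rhno1. A noncoding gene started there for Gins2 (Gm10614), Pcna (AV099323) and Plk1 (Gm15489). With genes of any type, 11 of 42 members (26.2%) had a partner start, against 28.9% of open promoters. In these promoters an element cannot be assigned to 1 of the 2 genes.

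The accessible stretch around the start was longer than at the median open promoter in both classes. Bases at a false discovery rate of 0.001 or less, within 500 bp of the start, had medians of 837 and 900 for S phase genes and 804 and 970 for mitosis genes, against 736 and 876. The order of the 2 classes differed between the replicates.

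Footprints with a midpoint within 500 bp of a start had medians of 9 in replicate 1 and 10 in replicate 2 for S phase genes, 7 and 7 for mitosis genes, and 8 and 8 for open promoters. S phase exceeded mitosis by 2.5 ± 0.707 footprints (SD, n = 2). The order depended on how footprints were counted: the difference was 0 for footprints inside peaks, and per kb of promoter peak it was -6.05 in replicate 1 and 1.95 in replicate 2. Of the members' promoter footprints, 70.5% in replicate 1 and 74.3% in replicate 2 overlapped a footprint of the other replicate, against 63.3% and 61.3% for open promoters. The members' promoters were stronger than the median open promoter, at median percentiles of 68.7 and 65.3. Sharing was not counted for open promoters of like strength.

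In S phase genes the most footprints were at Ccne2, which encodes cyclin E2 (19 and 16), Uhrf1, which helps to maintain DNA methylation behind the fork (18 and 16), and Ccne1 (16 and 15). The fewest were at Rfc3, a clamp loader subunit (5 and 5), Tk1 (4 and 6) and Pola1 (4 and 6). Footprints were counted around every annotated start, so the counted stretch can be longer in genes with several. Ccne2 had 3 starts and Uhrf1 had 4, whereas Ccne1, Rfc3, Tk1 and Pola1 had 1 each. In mitosis genes the most were at Kif11 (11 and 12), Foxm1 (11 and 11) and Aurka (12 and 7). The fewest were at Ccnb2 (5 and 4), Birc5 (5 and 5), and, with equal means, Bub1b (6 and 5) and Aurkb (8 and 3). Footprint number did not follow strength in every member, since Foxm1 had a weak promoter and Birc5 a strong one.

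Distal peaks, with a midpoint over 500 bp from any protein-coding start, were counted in the gene body and 25 kb on each side. A peak that reached into the 500 bp around a start from outside was counted as a promoter peak and as a distal peak, which applied to 11 peaks of the 42 members in replicate 1 and 12 in replicate 2. In 1 case, Mcm7 in replicate 2, such a peak was also the strongest promoter peak. Without peaks that had any base in those 500 bp, a setting chosen after seeing the data, the class difference was 0.03 ± 0.37 per 100 kb. The median density per 100 kb was 5.81 in replicate 1 and 5.85 in replicate 2 for S phase genes, and 5.51 and 6.30 for mitosis genes. It was 5.68 and 6.84 for genes with an open promoter and 3.94 and 5.18 for all protein-coding genes. The difference between the classes was -0.07 ± 0.53 per 100 kb (SD, n = 2), with opposite signs in the replicates. Both its sign and its size depended on the definition: it was 2.11 ± 0.38 with flanks of 10 kb, 0.63 ± 0.16 with the authors' shorter peak list and -1.27 ± 0.55 for peaks over 2000 bp from a start, so no direction can be given.

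**Figure D5:**
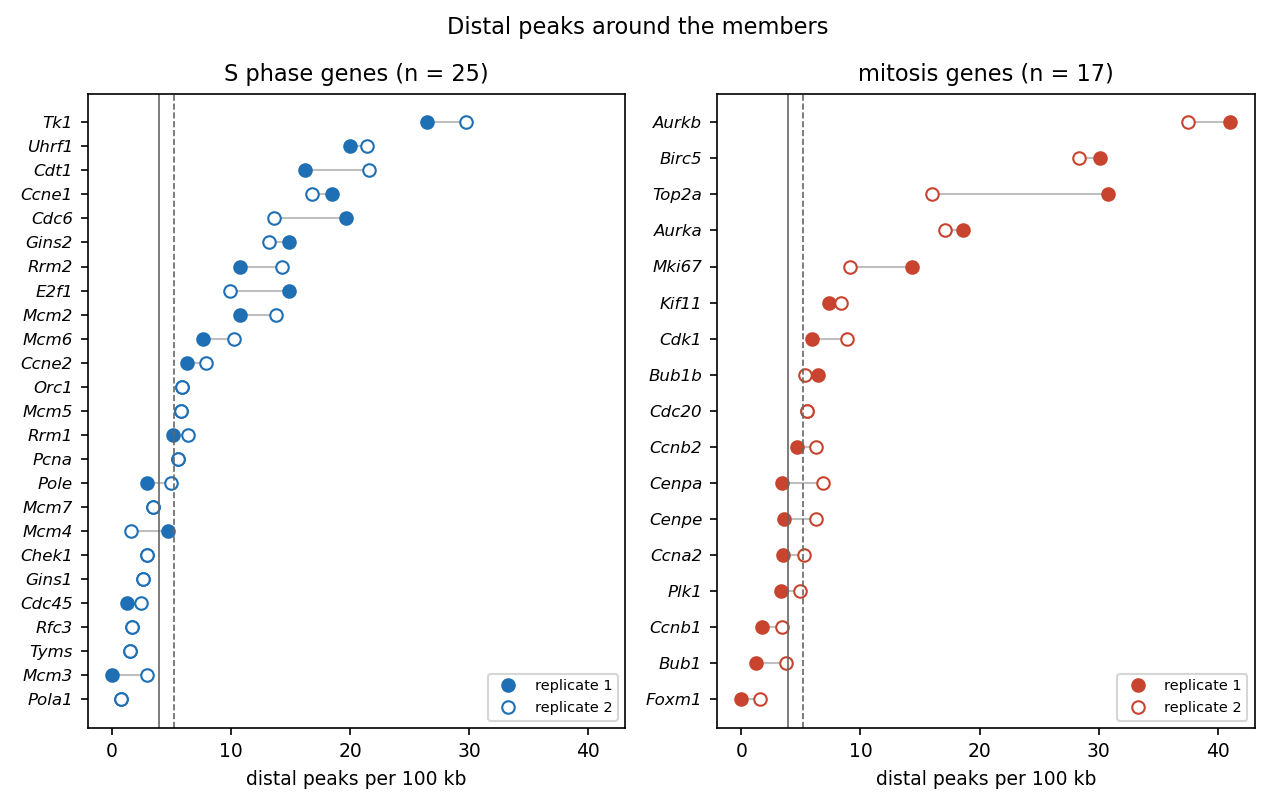
Each row is 1 member, with its distal peaks per 100 kb (x axis) in replicate 1 (filled) and replicate 2 (open, which covers the filled circle where values coincide), and vertical lines give the median of all protein-coding genes in replicate 1 (solid, 3.94) and replicate 2 (dashed, 5.18). Both classes run from near 0 to above 25, with Aurkb at 41.1 and 37.5.

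Members differed far more than classes. In mitosis genes, Aurkb had 41.1 and 37.5 distal peaks per 100 kb, Birc5 had 30.1 and 28.3, and Top2a had 30.8 and 16.0. In S phase genes, Tk1 had 26.4 and 29.7, Uhrf1 had 19.95 and 21.4, and Cdt1 had 16.2 and 21.6. These intervals held other genes too: Borcs6, Ctc1 and Tmem107 lay in that of Aurkb, and Gjd3, Igfbp4 and Rara in that of Top2a. Tk1 and Birc5 are neighbours on chromosome 11, and 9 of their distal peaks in each replicate were the same peaks.

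At the other end, Foxm1 had 0 and 1.58, Bub1 had 1.24 and 3.72, and Ccnb1 had 1.73 and 3.45. In S phase genes, Pola1 had 0.795 in each replicate, Mcm3 had 0 and 2.97, and Tyms had 1.53 in each. Tyms and Pola1 were thus low in distal peaks as well as in promoter strength, whereas Tk1 had a weak promoter among many distal peaks. The strong promoter of Mcm4 went with few distal peaks in replicate 2 only (1.57, against a median of 5.18 over all protein-coding genes). In replicate 1 Mcm4 had 4.72, above the 3.94 of all protein-coding genes and below the 5.68 of genes with an open promoter.

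The strongest distal peak of any member was near Ccne1. It lay between genes at chr7:38084901-38085120 (mm10) in replicate 1, with its middle 22523 bp from the start of Ccne1, and had a strength of 27.6 there and 11.7 in replicate 2. No other protein-coding gene lay in the interval of Ccne1, and its promoter peak had 13.0 and 13.3, so the distal peak was the stronger of the 2 in replicate 1 only. Near Uhrf1 a peak at chr17:56291161-56291480, in an intron of Plin3 and 810 bp from a Plin3 start, had 18.0 in replicate 1, and the overlapping peak had 8.30 in replicate 2. Near Mki67, which encodes the proliferation antigen Ki-67, a peak between genes at chr7:135735801-135736000, 19540 bp from its start, had 15.8, and the overlapping peak had 5.67 in replicate 2. The Mki67 promoter had 9.97 and 4.14, so that its distal peak was the stronger of the 2 in both replicates.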

How the data were processed

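Each sample's peaks, footprints and false discovery rate track were made from its own mm10 alignments, per the file listing deposited with it, with aligner, callers and the treatment of CAST alleles not given in the sources used here. Peak strength is the signal value of the authors' longer peak list. That deposited track gives a q-value (false discovery rate) per run of bases and lists runs under 0.05; open bases were counted at 0.001 or less. The footprint score the authors deposited is 0.01 throughout and was not used. Replicates were not pooled.

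Genes came from GENCODE M21 and sequence from GRCm38.p6, whose primary chromosomes are those of mm10; 27 duplicated symbols were left out. Strengths were compared within a replicate because their scaling is not given. Computation used Python 3.11.15, numpy 2.4.6 and pandas 2.3.3, and functions were tested on simulated data. Members and lists were chosen with earlier results of these data known, and motif windows were placed with the peaks themselves, for all genes alike. Named genes were the 4 strongest and 4 weakest promoters per class, the 3 highest and 3 lowest in distal peaks and in footprints, and the 4 with the largest replicate gap; other members illustrate roles. Promoter sequences were chosen as the 3 per class with the most covered matches, ties going to the higher mean percentile, and 1 of them is not reported here. With 1 group and 2 samples, no test was made. Alternatives were the shorter peak list, other distances, other words and 1 replicate at a time.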

Additional observations from a re-analysis of the deposited data

How the results depend on the processing

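All values rest on 2 samples of unknown depth. There were 40 alternatives to the main results, 1 of them chosen after seeing the data. Of these, 30 left the value within its replicate spread or within 1.5 times its count, and 9 moved it further. In 1 case a difference that had 1 sign in both replicates was reversed, and the cause was not tested. Part of the 30 could not come out otherwise. A difference in 1 replicate always lies within the spread of both. Promoters open in both replicates stay open with 1 replicate or with 2000 bp around a start. The distal difference, which had opposite signs in the replicates, also changed sign. With 1 replicate at a time, the strength difference between S phase and mitosis was 0.25 to 0.38 (log2), that in distal peaks per 100 kb -0.45 to 0.30, that in promoter footprints 2 to 3, and 42 promoters were open. Summing promoter peaks gave a strength difference of 0.51. The distal difference was 0.63 with the shorter peak list, 2.11 with flanks of 10 kb and -1.27 for peaks over 2000 bp from a start. The footprint difference was 1 within 250 bp, 0 inside peaks and -2.05 per kb of promoter peak. E2F words of 8 letters left 1 mitosis gene with a match, and CHR words were in 5 S phase genes with the outermost start and in 1 with TTTGAA alone, which left 11 mitosis genes. Among 84 alternatives for counts under footprints and for the further genes, 18 moved and none reversed. No paired analysis was possible because the series has 1 group.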
